A study of Homo sapiens with 95 samples.

Results

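The genes of activin and TGF-beta signalling were followed in sparse full length (SFL) RNA-seq libraries of AALE, a bronchial epithelial cell line of human origin that was immortalized in culture. The 9 members were taken by gene symbol from the 27978 symbols in the count files, and were the ligand genes INHBA, INHBB, TGFB1 and TGFB2, the ligand-binding inhibitors FST and FSTL3, the Smad genes SMAD3 and SMAD7, and the secreted matrix gene TGFBI. INHBA was chosen by its measured fold change, since it rose the most of all genes when PIK3CA was compared with HcRed under cigarette smoke condensate. That contrast is therefore given as a description, and its 6 libraries entered none of the tests below, apart from 2 alternatives that are named where they are used. SFL is a pooled and barcoded form of RNA-seq run at low depth per library.

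The cells carried 1 of 8 genotypic perturbations. NRF2 (NFE2L2), FGFR1, NRG1 and PIK3CA were overexpressed, and a vector with the reporter HcRed was the control for these. FAT1 and CDKN2A were knocked out by CRISPR, and cells that had received the Cas9-EGFP plasmid with no guide, called GFP, were the control for these. Each line was exposed at confluence to cigarette smoke condensate at 24 μg/ml (CSC), to benzo(a)pyrene at 173 μM (BaP), to the nitrosamine NNK at 490 μM, or to DMSO alone as the solvent control. How long the exposure lasted, and whether a line was a clone or a pool of cells, is not given in the sources used here. All 32 combinations had 3 libraries except FGFR1 with CSC, which had 2, giving 95 libraries. The study describes the libraries of a combination as biological replicates of cells plated in wells. Within 1 treatment or line, the p-values measure the spread between these libraries. In comparisons over treatments or lines, that spread also holds any change of the difference between treatments or lines. The labels name 1 line per genotype, so a perturbation and other differences of its line cannot be told apart. The libraries held between 287446 and 2116383 counted reads (median 934235), so 3 reads stood for 1.42 to 10.4 CPM, the reads of a gene scaled to a common library total. The perturbed gene was higher in every library of its overexpression line, or lower in every library of its knockout line, than in any library of the control. Basal epithelial markers were present in every library (median KRT5 level 11.61 log2 CPM), as were the fibroblast list's COL1A1 (median 4.77) and, in all but 1 library, the leukocyte list's CD68 (3.99). DCN of the fibroblast list was at 0 reads in 39 libraries, and the other markers of fibroblasts, leukocytes, endothelium and ciliated or secretory cells were at 0 in 69 to 95.

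Activins and TGF-beta proteins are secreted dimers of 1 ligand family. INHBA encodes the subunit of activin A, INHBB that of activin B, and TGFB1 and TGFB2 encode 2 of the TGF-beta isoforms. They bind pairs of serine/threonine kinase receptors, which phosphorylate SMAD2 and SMAD3. These then enter the nucleus with SMAD4 and act on target genes. Follistatin (FST) and follistatin-like 3 (FSTL3) trap activin outside the cell, SMAD7 blocks the receptors and is itself induced by the pathway, and TGFBI, named for its induction by TGF-beta, is deposited in the matrix. In airway epithelium the pathway is known for slowing proliferation and for its part in repair and in the change towards a mesenchymal state.

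INHBA lies on chromosome 7 (GRCh37 chr7:41706766-41745432, minus strand), TGFB1 on chromosome 19 (chr19:41807492-41859827, minus strand) and TGFB2 on chromosome 1 (chr1:218518678-218617961, plus strand). The 300 bases around the start sites of these 3 ligand genes, from 250 before the start to 50 after it, are shown because they are the ligand genes of the set that had enough reads to be tested. The start used for INHBA lies inside its annotated span. The sequences are RefSeq promoter windows located on GRCh37, written 5′ to 3′ on the strand of the gene, and capitals mark a match to the Smad-binding CAGA box searched as CAGACA on both strands.
INHBA, chr7:41742639-41742938, minus strand: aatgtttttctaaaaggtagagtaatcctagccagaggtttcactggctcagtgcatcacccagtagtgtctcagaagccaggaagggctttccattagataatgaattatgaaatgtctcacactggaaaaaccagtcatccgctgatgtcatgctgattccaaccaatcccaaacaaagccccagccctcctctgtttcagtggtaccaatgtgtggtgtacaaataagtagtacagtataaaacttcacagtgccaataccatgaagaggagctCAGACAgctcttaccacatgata
TGFB2, chr1:218518428-218518727, plus strand: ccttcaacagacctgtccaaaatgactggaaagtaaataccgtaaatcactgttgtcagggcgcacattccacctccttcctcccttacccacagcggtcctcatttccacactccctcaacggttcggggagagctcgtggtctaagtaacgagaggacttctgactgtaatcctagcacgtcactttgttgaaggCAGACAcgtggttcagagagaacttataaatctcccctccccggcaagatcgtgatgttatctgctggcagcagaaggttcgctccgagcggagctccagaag
TGFB1, chr19:41859778-41860077, minus strand: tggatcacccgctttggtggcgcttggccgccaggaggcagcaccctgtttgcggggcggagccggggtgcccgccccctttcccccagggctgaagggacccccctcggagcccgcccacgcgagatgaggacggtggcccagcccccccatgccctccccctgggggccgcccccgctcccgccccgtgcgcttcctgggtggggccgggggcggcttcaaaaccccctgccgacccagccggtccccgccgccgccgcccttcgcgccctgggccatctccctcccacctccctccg
INHBA held the CAGA box 27 bases after the start and TGFB2 held it 53 bases before (position -53), while the TGFB1 window held none. The box occurred in 16.9% of 35116 RefSeq promoter windows of this length. None of these 3 windows held the AP-1 motif TGANTCA (7.71% of all windows), the cyclic AMP response element TGACGTCA (1.85%) or the Smad palindrome GTCTAGAC (0.202%). The windows also differed in base composition, with 43.3% G and C in INHBA, 51.7% in TGFB2 and 77.3% in TGFB1. A match of letters is a description of the sequence and does not show that a factor was bound.

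The members lay at very different levels. Per kilobase of transcript, TGFBI was at 337 ± 150 CPM (SD, n = 95), TGFB1 at 32 ± 10.6, FSTL3 at 31.9 ± 9.36, SMAD3 at 8.23 ± 2.02, SMAD7 at 5.02 ± 1.77, FST at 1.14 ± 1.14, INHBA at 1.06 ± 1.5, TGFB2 at 0.654 ± 0.548 and INHBB at 0.049 ± 0.138. TGFB1 and FSTL3 did not differ by more than their spread over libraries, and neither did FST, INHBA and TGFB2. INHBB had 15 reads in all 95 libraries together and 0 reads in 83 of them. It never reached the mean of 1 read that was required for a test, so every count below is over at most 8 members. INHBA had 0 reads in 20 libraries, FST in 23 and TGFB2 in 14, and for these 3 genes a difference of a few reads moves the estimate. Some receptors for these ligands, named here after their values were seen, were present throughout. TGFBR2 was at 31.1 ± 7.64 CPM per kilobase, TGFBR1 at 21.0 ± 4.36, ACVR1B at 6.02 ± 1.39 and ACVR2A at 4.85 ± 1.41. Not all were, since the receptor ACVR1C (0.155 ± 0.197) and the co-receptor ENG (4.74 ± 4.48) had a lowest value of 0.

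**Figure D1:**
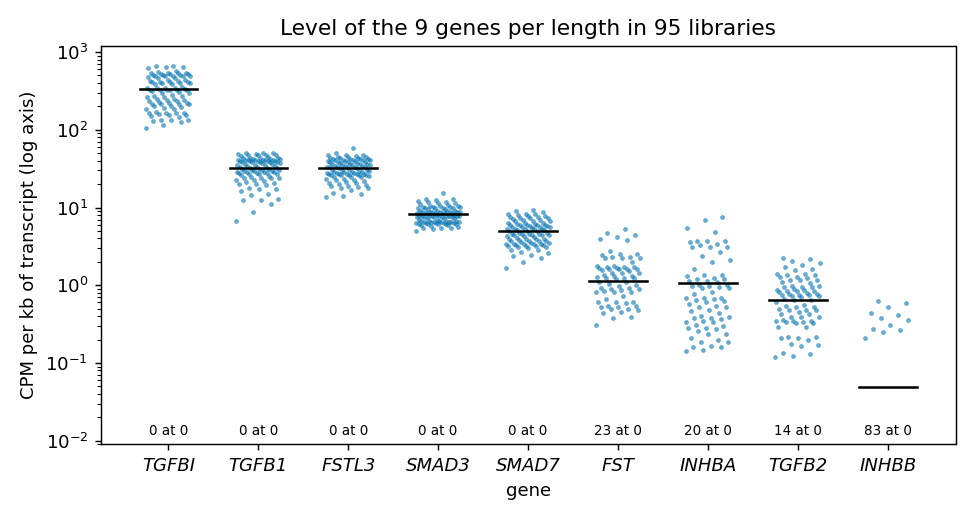
Level of the 9 genes in each of 95 libraries, in CPM per kilobase of transcript on a log axis. Each point is a library with at least 1 read, the line is the mean over all 95, and the number of libraries with 0 reads is printed under each gene. TGFBI lies at a mean of 337 and INHBB at 0.049.

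Over the libraries of a line without CSC, INHBA was at 21.2 CPM in PIK3CA, 9.09 in FGFR1, 4.53 in NRF2, 4.06 in HcRed and 3.28 in NRG1. It was at 2.02 in CDKN2A, 0.281 in GFP and 0 in FAT1. Each line overlapped its neighbour in this order, PIK3CA and FGFR1 by the least (lowest 4.39 and highest 4.4 log2 CPM). With the CSC libraries added, those that chose INHBA included, PIK3CA was at 25.5 CPM, NRG1 at 3.94 and HcRed at 3.48. In the contrast that chose it, INHBA had 45, 36 and 52 reads in the 3 PIK3CA libraries with CSC and 2, 5 and 1 reads in the 3 HcRed libraries with CSC. The fitted log2 difference was 3.99, the largest rise of 14595 genes. No test is attached to these values. The other members differed less in those 6 libraries, from 1.24 for TGFB2 to -0.32 for SMAD3.

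The libraries with DMSO, BaP or NNK had no part in that choice, and INHBA was higher in PIK3CA in all of them. PIK3CA encodes the catalytic subunit of phosphoinositide 3-kinase, which acts downstream of growth factor receptors. INHBA had 21, 32 and 20 reads in PIK3CA with DMSO, 29, 18 and 17 with BaP, and 25, 34 and 10 with NNK. The HcRed libraries had 2, 2 and 7 reads with DMSO, 8, 7 and 2 with BaP, and 1, 3 and 1 with NNK. The lowest PIK3CA library was above the highest HcRed library on both the read and the CPM scale, at 4.39 against 3.17 log2 CPM. Without regard to direction, the groups did not overlap in log2 CPM for 2.33% of the genes tested. The mean was 4.57 ± 0.18 log2 CPM in PIK3CA and 2.5 ± 0.46 in HcRed (SD, n = 9 each), and the fitted log2 difference was 2.40 ± 0.26 (SE, adjusted p = 1.66e-11). Levels in log2 CPM here include 2 added reads, which draws low genes together, so the fitted difference is larger than that between the means. Within single treatments INHBA was higher by 2.47 ± 0.48 with DMSO, 2.22 ± 0.40 with BaP and 2.65 ± 0.60 with NNK, each past the threshold of 0.05 (adjusted p = 0.000152, 3.23e-05 and 0.000719, 3 libraries against 3). Leaving out any 1 of the 18 libraries, or all libraries of 1 replicate number, kept the log2 difference between 2.12 and 2.58. The antisense gene INHBA-AS1 overlaps INHBA, and whether the counting used strand is not given in the sources used here. It had 0 to 4 reads per library.

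**Figure D2:**
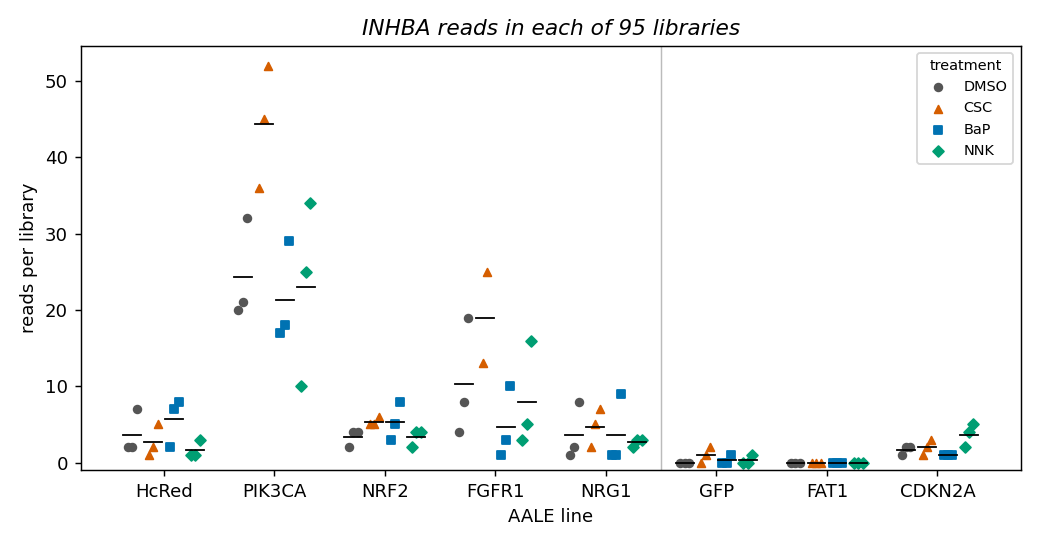
INHBA reads in each of 95 libraries, by AALE line and treatment. Points are libraries and short lines are means of a combination, and the vertical line divides lines compared with HcRed from those compared with GFP. PIK3CA libraries hold 10 to 52 reads, HcRed libraries 1 to 8, and FAT1 libraries 0.

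Of the 8 members tested in PIK3CA against HcRed over DMSO, BaP and NNK, 4 were higher and 1 was lower at an adjusted p under 0.05, where 21% of 14261 genes passed in either direction, 10.8% higher and 10.2% lower. The second ligand that rose was TGFB2, with 4 to 10 reads per PIK3CA library (median 9) and 0 to 5 per HcRed library (median 1). These ranges met at 4 and 5 reads. The log2 difference was 2.07 ± 0.41 (adjusted p = 7.06e-05), and within DMSO it did not pass (0.68 ± 0.55, adjusted p = 0.541). Within BaP (3.48 ± 0.74) and NNK (2.44 ± 0.80) TGFB2 reached the mean required for a test only through PIK3CA. HcRed had 1, 0 and 1 reads with BaP and 2, 0 and 0 with NNK, so these 2 values are given as a description. Both were past the threshold as fitted. The NNK call was lost with DESeq2 (adjusted p = 0.293) and without replicate 1 (0.0524), 2 (0.24) or 3 (0.302), and the BaP call without replicate 2 (0.0563). TGFB2 overlaps the antisense gene TGFB2-AS1, which had 0 to 2 reads per library. TGFB1 rose by 0.32 ± 0.09 (adjusted p = 0.00674), from a median of 6.35 log2 CPM in HcRed (range 5.84 to 7.15) to 6.77 in PIK3CA (6.46 to 7.10), with overlapping groups. TGFBI rose by 0.35 ± 0.03 (adjusted p = 3.37e-13), from a median of 10.09 (9.5 to 10.15) to 10.37 (9.93 to 10.52).

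SMAD3 fell by 0.32 on the log2 scale (SE 0.11, adjusted p = 0.0318), from a median of 5.85 log2 CPM (5.63 to 6.26) to 5.50 (5.24 to 6.10). This call was lost on leaving out any 1 of 7 libraries, with adjusted p from 0.0511 to 0.114, which were HcRed with BaP replicate 1, HcRed with NNK replicates 1 and 2, and PIK3CA with BaP replicate 1, DMSO replicate 2 and NNK replicates 1 and 2. It was also lost without replicate 1 (0.218), 2 (0.0683) or 3 (0.0983) of every combination, with DESeq2 (0.0571) and with no filter on low counts (0.0597), so that 19 of 31 alternatives kept it. The TGFB1 call was lost without replicate 1 (adjusted p = 0.0679). The inhibitors FST and FSTL3 had log2 differences of 0.21 ± 0.56 and -0.19 ± 0.10, and SMAD7 of -0.04 ± 0.20, none past the threshold. Summed basal epithelial markers were lower in PIK3CA (4690 to 5550 CPM over its 12 libraries) than in HcRed (7090 to 9460 CPM), with all 7 markers detected in every library, and their part in these differences was not tested. In bulk RNA of this kind, fewer cells of a type and less RNA per cell cannot be told apart.

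Among the other pathway genes, a list of 63, 54 were tested in PIK3CA against HcRed. Of these, 10 were higher and 8 lower (33.3%, beside 21% of all genes tested). Their median log2 difference was 0, beside -0.01 over all genes. ENG, the co-receptor endoglin, rose by 1.97 ± 0.21, CTGF, a matricellular growth factor, by 1.37 ± 0.20, and FN1, which encodes fibronectin, by 1.03 ± 0.04. The collagen gene COL1A1 fell by 0.89, SNAI2, a transcription factor of epithelial-mesenchymal change, by 0.73, and ITGB6, a subunit of an integrin that frees latent TGF-beta, by 0.45 on the log2 scale. The ITGB6 call was lost in 1 of 31 alternatives (adjusted p = 0.0615). By role, 2 of 12 receptors rose and none fell, 3 of 12 targets rose and 4 fell, and 1 of 9 latency or activation genes rose and 3 fell. Over all genes 10.8% were higher and 10.2% lower.

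The other 3 overexpression lines were compared with the same HcRed libraries, so the comparisons are not independent of each other. For INHBA the fitted log2 difference from HcRed was 0.96 ± 0.34 in FGFR1 (adjusted p = 0.0641), 0.16 ± 0.34 in NRF2 and -0.31 ± 0.37 in NRG1, none past the threshold. FGFR1 with DMSO had 8, 4 and 19 INHBA reads, with BaP 3, 10 and 1, and with NNK 5, 3 and 16, and 1 of these 9 libraries (4.4 log2 CPM) reached the lowest PIK3CA library (4.39). The FGFR1 difference passed in 4 of 12 alternatives, which were edgeR's quasi-likelihood test (adjusted p = 0.0177), the GC and length correction (0.0443), 1 fit of all 95 libraries (0.0248) and the addition of the CSC libraries (0.00064). The last 2 are no independent support, since they draw on libraries that chose INHBA, the fit of all 95 for its spread, filter and normalization and the other for the HcRed level itself. FGFR1 is a receptor for fibroblast growth factors, NRG1 a ligand of ERBB receptors, and NRF2 the transcription factor of the antioxidant response.

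TGFB2 was the ligand that rose in 3 of the 4 overexpression lines. FGFR1 had 0 to 10 reads per library (median 5) and NRG1 had 2 to 17 (median 6), against 0 to 5 (median 1) in HcRed. The log2 difference was 1.57 ± 0.40 in FGFR1 (adjusted p = 0.00482) and 1.77 ± 0.44 in NRG1 (adjusted p = 0.00524). In NRF2 it was 0.28 ± 0.47 and did not pass. Without replicate 2 the FGFR1 value was 1.21 (adjusted p = 0.142), and without replicate 1 the NRG1 value was 1.49 (adjusted p = 0.116). Inside single treatments the FGFR1 difference did not pass with DMSO (adjusted p = 0.42), BaP (0.106) or NNK (0.455). That of NRG1 did not pass with DMSO (0.551) or NNK (0.317). With BaP the NRG1 difference was 2.95 ± 0.79, but TGFB2 reached the mean required for a test there only through NRG1. This value is given as a description. It was past the threshold as fitted, and not on leaving out any 1 replicate number. TGFB1 passed in none of these 3 lines, with log2 differences between -0.06 and 0.23.

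TGFBI passed in all 4 comparisons with HcRed, but not in 1 direction. It rose by 0.34 ± 0.03 in NRF2 (adjusted p = 1.14e-15) and by 0.16 ± 0.03 in FGFR1 (adjusted p = 0.000756), and fell by 0.25 (SE 0.04, adjusted p = 5.78e-05) in NRG1. The median was 10.41 log2 CPM in NRF2, 10.18 in FGFR1, 9.71 in NRG1 and 10.09 in HcRed, and every group overlapped HcRed over the 3 treatments. Without replicate 3 the FGFR1 difference was 0.11 (adjusted p = 0.0594). TGFBI was the single member of 8 that passed in NRF2, where 19.4% of genes did, while 2 of 8 passed in FGFR1 (9.61% of genes) and 2 of 8 in NRG1 (7.43%). SMAD3 did not pass in these lines, at -0.30 ± 0.11 in NRF2 (adjusted p = 0.0543), -0.26 ± 0.11 in FGFR1 and -0.12 ± 0.12 in NRG1. SMAD7 in NRG1 was at 0.55 ± 0.19 (adjusted p = 0.0597), with 12 to 29 reads per library against 7 to 20 in HcRed.

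**Figure D3:**
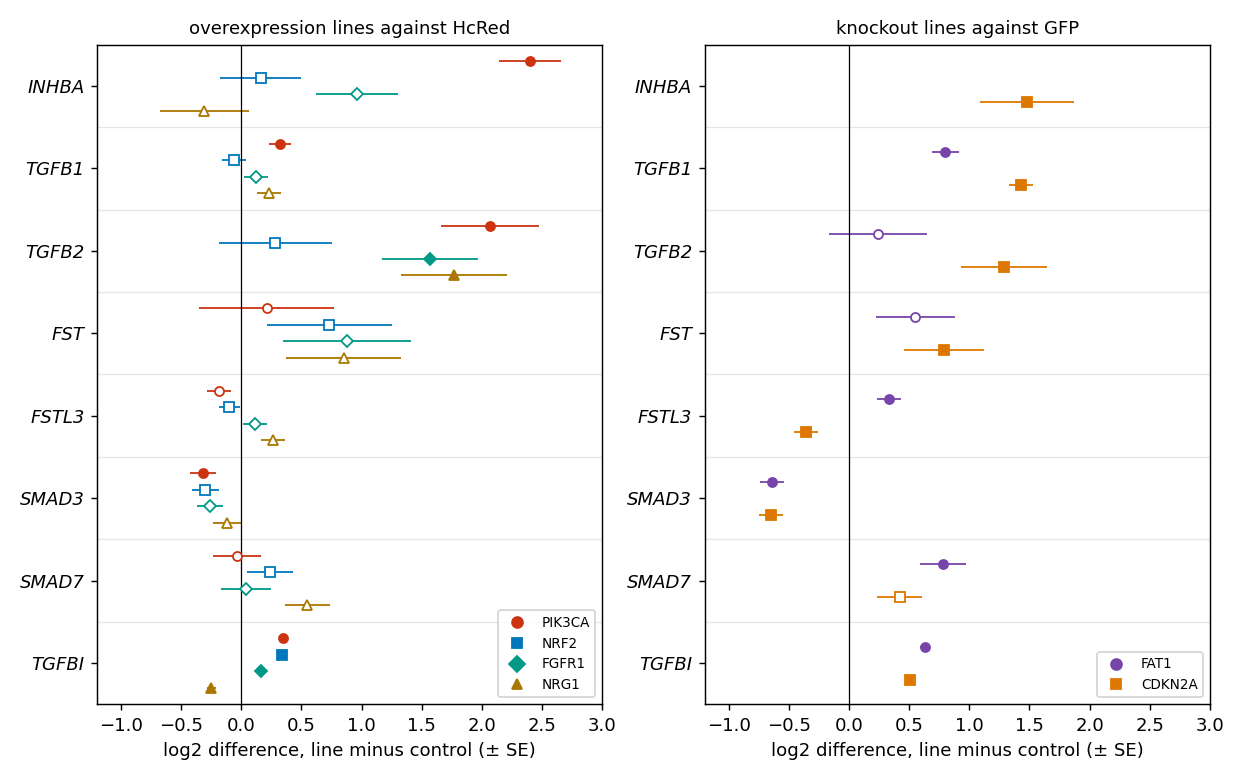
Log2 difference of each member between a line and its control, with bars of 1 SE. The left panel compares the overexpression lines with HcRed over DMSO, BaP and NNK, the right panel the knockout lines with GFP over the 4 treatments. Filled symbols passed an adjusted p of 0.05, and INHBA in PIK3CA is at 2.40. INHBA in CDKN2A is drawn filled but passed the filter only through the CDKN2A libraries.

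Of the other pathway genes, 6 rose and 6 fell of 51 tested in FGFR1 (23.5%, beside 9.61% of all genes tested). There FSTL1, a follistatin-like secreted protein, rose by 0.67 ± 0.10, ENG by 0.95 ± 0.23 and CTGF by 0.68 ± 0.22, while ITGB6 fell by 0.72, the proprotein convertase FURIN by 0.48 and the receptor TGFBR2 by 0.42. CTGF passed in 7 of 13 alternatives (adjusted p up to 0.244) and ENG in 12 of 13 (up to 0.0589). In NRF2, 6 rose and 11 fell of 50 (34%, beside 19.4% of all genes). Its falls were led by FN1, down by 1.65, THBS1, an activator of latent TGF-beta, down by 1.39, and SNAI2, down by 1.30, beside rises in BMP7 (1.41 ± 0.43), ENG (adjusted p = 8.57e-05) and ID1 (0.59 ± 0.14), of which BMP7 passed in 10 of 12 alternatives (adjusted p up to 0.0779). NRG1 had 10 higher and 5 lower of 53 (28.3%, beside 7.43% of all genes). Here FN1 (1.27 ± 0.05) and THBS1 (1.09 ± 0.06) rose. GREM1, an antagonist of bone morphogenetic proteins, was at 1.83 ± 0.44. It had a mean of 5.33 reads in NRG1 and 1 in HcRed, so it passed the filter on low counts only through NRG1. Its value is given as a description, and the 10 higher include it. In the same line ITGB8, an integrin subunit that activates latent TGF-beta, fell by 0.96, the co-receptor TGFBR3 by 0.54 and ID3 by 0.51. TGFBR3 passed in 5 of 13 alternatives (adjusted p up to 0.183) and ID3 in 8 of 13 (up to 0.438).

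In the knockout lines the members were compared with GFP over all 4 treatments. FAT1 encodes a large atypical cadherin, and CDKN2A encodes the cell cycle inhibitor p16INK4a and p14ARF. Both lines share the 12 GFP libraries as control. INHBA had 0 reads in all 12 FAT1 libraries, and in GFP it had 5 reads in 12 libraries, with 0 in 8 of these. With so few reads it was not tested in FAT1, and 0 reads over the group allow up to 0.284 CPM (3 reads of the total, covering counting error only). In CDKN2A INHBA had 1 to 5 reads in each of 12 libraries (median 2). It passed the filter on low counts only through these libraries, with a mean of 2.08 reads against 0.417 in GFP, so the values are given as a description with no test.

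TGFB1 carried the clearest ligand difference in the knockouts. In GFP it lay at 4.36, 5.24 and 5.21 log2 CPM with DMSO, 6.04, 5.66 and 5.70 with CSC, 5.04, 4.72 and 5.20 with BaP, and 5.59, 5.45 and 6.39 with NNK. In CDKN2A it lay at 6.48, 6.38 and 6.33 with DMSO, 6.94, 7.14 and 6.97 with CSC, 7.14, 7.03 and 7.06 with BaP, and 6.83, 6.67 and 6.67 with NNK. The lowest CDKN2A library lay at 6.33 and the highest GFP library at 6.39, and 1 GFP library, the highest, lay inside the CDKN2A range. The log2 difference was 1.43 ± 0.10 (adjusted p = 1.68e-19) in CDKN2A, with means of 6.80 ± 0.29 and 5.38 ± 0.55 (SD, n = 12 each), and 0.80 ± 0.11 (adjusted p = 2.74e-09) in FAT1, at a mean of 6.16 ± 0.37. GFP, the shared control, had the lowest TGFB1 level of the 8 lines, at 40.9 CPM, beside 70.7 in FAT1, 90.8 in HcRed and 107 in CDKN2A. TGFB1 shares its locus with HNRNPUL1, TMEM91 and CCDC97 on the opposite strand, of which HNRNPUL1 had 110 to 788 reads per library. After a correction for GC content and transcript length the differences were 1.22 and 0.55, both past the threshold.

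SMAD3 was lower in both knockouts, by 0.64 on the log2 scale in FAT1 (SE 0.10, adjusted p = 3.78e-08) and by 0.65 in CDKN2A (SE 0.10, adjusted p = 4.21e-08). Its median was 6.15 log2 CPM in GFP (5.68 to 6.67), 5.45 in FAT1 (5.28 to 5.92) and 5.48 in CDKN2A (5.08 to 5.89). TGFBI was higher in both, by 0.63 ± 0.04 in FAT1 (adjusted p = 7.93e-22) and by 0.51 ± 0.04 in CDKN2A (adjusted p = 3.63e-17), with medians of 9.21 and 9.13 against 8.53 in GFP. Of the 8 lines, the shared control GFP had the highest SMAD3 level (70.7 CPM) and the lowest TGFBI level (375 CPM). SMAD7, the inhibitory Smad, rose in FAT1 by 0.78 ± 0.19 (adjusted p = 0.000333) and was at 0.42 ± 0.19 in CDKN2A (adjusted p = 0.0562). GFP also had the lowest SMAD7 level of the 8 lines (11.1 CPM).

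The activin inhibitor FSTL3 went in opposite directions in the knockouts. It was higher in FAT1 by 0.33 ± 0.10 (adjusted p = 0.0038) and lower in CDKN2A by 0.36 on the log2 scale (SE 0.10, adjusted p = 0.00236), with medians of 6.26 and 5.66 log2 CPM against 6.11 in GFP, and the 2 lines were not tested against each other. After the GC and length correction the FAT1 difference was 0.05 (adjusted p = 0.68) and that of CDKN2A was -0.62 (adjusted p = 4.91e-08), and without replicate 2 the FAT1 difference was 0.27 (adjusted p = 0.0619). The low-count members TGFB2 and FST passed in CDKN2A, at 1.29 ± 0.36 (adjusted p = 0.00162) and 0.79 ± 0.33 (adjusted p = 0.0364). TGFB2 was at 0.82 (adjusted p = 0.0868) without replicate 1, and FST at adjusted p = 0.151 without replicate 1 and 0.0983 without replicate 2. In FAT1 they were at 0.24 ± 0.41 and 0.55 ± 0.33 and did not pass.

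In all, 5 of 7 members tested passed in FAT1 (4 higher, 1 lower), where 48.9% of genes did (25% higher and 23.9% lower), and 6 of 7 in CDKN2A with INHBA left out (4 higher, 2 lower), where 57.6% did (29.4% higher and 28.3% lower). The counts of members stand against lines in which about as many genes were called as not. The median log2 difference over the members tested was 0.55 in FAT1 and, without INHBA, 0.51 in CDKN2A, beside 0.03 and 0 over all genes. Summed fibroblast markers were 16.9 to 66.9 CPM in FAT1, 25.5 to 64.9 in CDKN2A and 10.6 to 53.9 in GFP, and those of basal epithelium were 3500 to 5460, 3800 to 5810 and 5530 to 7050 CPM. Over all libraries the fibroblast reads were mostly COL1A1 (mean 24.2 reads, beside 1.29 for DCN), which is also a target in the pathway list. The part of either marker set in these differences was not tested.

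Of the other pathway genes, 19 rose and 14 fell of 51 in FAT1 (64.7%, beside 48.9% of all genes). In CDKN2A 23 rose and 13 fell of 53 (67.9%, beside 57.6%). Of the targets, 8 of 11 were higher and 1 lower in FAT1, where 25% of all genes were higher. In CDKN2A 9 of 12 were higher and 1 lower, where 29.4% of all genes were higher. With the GC and length correction, targets higher and lower were 6 and 1 in FAT1 and 8 and 1 in CDKN2A. In CDKN2A the rises were led by CTGF at 3.01 ± 0.22, FN1 at 2.01 ± 0.07 and THBS1 at 1.84 ± 0.08, while BMP7 fell by 1.39, BMP4 by 1.14 and SMURF1, a ubiquitin ligase that acts on Smads and receptors, by 0.78. BMP4 passed in 10 of 11 alternatives (adjusted p up to 0.0844). BMP7 had a mean of 0.75 reads in CDKN2A and 2.42 in GFP, so it passed the filter only through GFP. Its value is given as a description, and the 13 that fell include it. In FAT1 the rises were FN1 at 1.47 ± 0.07, TGIF2, a Smad co-repressor, at 1.24 ± 0.25 and ID1 at 1.06 ± 0.14. FSTL1 fell there by 1.44 and SMAD9 by 1.42. The type I receptor ACVR1C had 0 to 3 reads per FAT1 library (mean 0.417) and 0 to 8 in GFP (mean 3.25), and it passed the filter only through GFP. The 14 that fell in FAT1 include it.

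**Figure D4:**
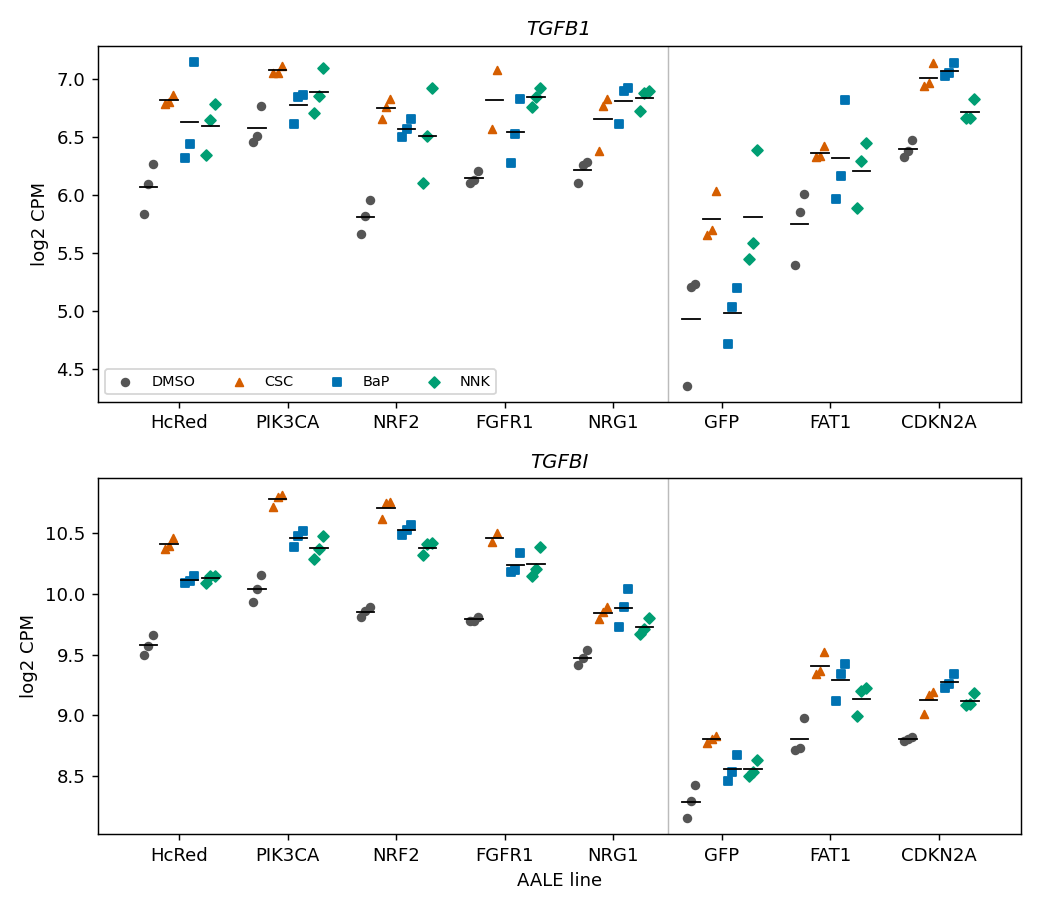
TGFB1 (top) and TGFBI (bottom) in log2 CPM in each of 95 libraries, by line and treatment. Points are libraries, short lines are means of a combination, and the vertical line divides the 2 sets of lines. GFP libraries reach the lowest level for both genes (4.36 and 8.15), and in all 8 lines the treated TGFBI libraries lie above the DMSO libraries of the line.

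The chemicals were compared with DMSO over the lines, with the line as a term in the model, 6 lines for CSC and 8 each for BaP and NNK. The 3 comparisons share the DMSO libraries. CSC is a mixture of tobacco combustion products, and BaP and NNK are single carcinogens of tobacco smoke. TGFBI rose with each, by 0.61 ± 0.03 with CSC (adjusted p = 3.3e-38), 0.48 ± 0.03 with BaP (adjusted p = 2.18e-34) and 0.41 ± 0.03 with NNK (adjusted p = 2.75e-27). In HcRed, TGFBI was at 9.5, 9.66 and 9.57 log2 CPM with DMSO, 10.09, 10.11 and 10.15 with BaP, and 10.15, 10.15 and 10.09 with NNK. In NRG1, where TGFBI was lower than in HcRed, it was at 9.54, 9.47 and 9.41 with DMSO, 9.89, 9.85 and 9.79 with CSC, 9.73, 10.04 and 9.89 with BaP, and 9.80, 9.71 and 9.67 with NNK. In 22 of 22 contrasts of a chemical with DMSO inside a line, every treated library was above every DMSO library of that line, as in 13.5% of tests over all genes. Of the 12293 genes with enough reads in all 22 contrasts, 39 did so (0.317%), TGFBI among them. Past the threshold, TGFBI rose in 6 of 6 lines with CSC, 7 of 8 with BaP and 8 of 8 with NNK, where 11.2% of tests over all genes and contrasts passed in either direction and 6.01% passed as higher. After a correction for GC content and transcript length these were 6 of 6, 6 of 8 and 4 of 8.

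TGFB1 was the ligand that rose with all 3 chemicals, by 0.63 ± 0.07 with CSC (adjusted p = 3.02e-13), 0.49 ± 0.06 with BaP (adjusted p = 1.03e-10) and 0.52 ± 0.06 with NNK (adjusted p = 7.72e-12). In NRF2 it went from 5.82, 5.96 and 5.67 log2 CPM with DMSO to 6.83, 6.76 and 6.66 with CSC. Inside single lines it passed as higher in 6 of 6 with CSC, 3 of 8 with BaP and 5 of 8 with NNK, and after the GC and length correction in 1, 0 and 0 of them. INHBA rose with CSC by 0.75 ± 0.22 (adjusted p = 0.00219) over the 6 lines that had no part in its choice, but in none of the 4 lines where it could be tested singly did it pass (0.63 to 0.88). It was at 0.61 (adjusted p = 0.0524) without replicate 1 and 0.57 (adjusted p = 0.0906) without replicate 2. With BaP and NNK INHBA was at 0.21 ± 0.18 and 0.16 ± 0.17 and did not pass.

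FSTL3 rose by 0.51 ± 0.07 with CSC, 0.25 ± 0.07 with BaP and 0.39 ± 0.07 with NNK, and SMAD7 by 0.48 ± 0.12, 0.29 ± 0.11 and 0.36 ± 0.11. SMAD3 rose with CSC alone among the 3, by 0.27 ± 0.08 (adjusted p = 0.00157), and was at 0.15 ± 0.07 with BaP (adjusted p = 0.0541) and -0.04 ± 0.07 with NNK, and the difference between chemicals was not tested. SMAD7 with BaP (adjusted p = 0.0239) did not pass without the CDKN2A line (adjusted p = 0.0641), the FAT1 line (0.0863), the NRG1 line (0.0535), replicate 2 (0.102) or replicate 3 (0.22), and with NNK it did not pass without replicate 3 (0.0839). SMAD3 with CSC was at adjusted p = 0.0595 without replicate 2. TGFB2 and FST passed with no chemical. With CSC 6 of 8 members passed, where 47.3% of genes did (23.6% higher), and with BaP and NNK 4 of 8, where 51.5% and 52% did (25.7% and 25.8% higher), and all of these members rose. For BaP and NNK the share of members past the threshold in either direction was no higher than that of all genes. Inside single lines members passed in 44 of 167 tests (26.3%), 43 higher and 1 lower, which was FST with BaP in FAT1.

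Several of these values changed when base composition was taken into account. The transcripts of FSTL3 and TGFB1 have a GC fraction of 0.643 and 0.636, against 0.531 for TGFBI and 0.392 for INHBA. When the trend of each library with GC content and transcript length was removed, the genes called dropped to 26.6% with CSC, 23.5% with BaP and 15.4% with NNK. TGFBI still rose with each, by 0.49, 0.36 and 0.28 (adjusted p = 1.31e-33, 9.03e-27 and 1.28e-17), and INHBA with CSC by 0.96 (adjusted p = 0.000155). TGFB1 was at 0.20 with CSC (adjusted p = 0.0177), 0.05 with BaP (0.583) and 0.09 with NNK (0.342). FSTL3 was at 0.04 with CSC (adjusted p = 0.702) and turned to -0.21 with BaP (adjusted p = 0.00755) and -0.07 with NNK (adjusted p = 0.515). SMAD7 no longer passed with any of them, at 0.27, 0.05 and 0.12, and SMAD3 with CSC was at 0.20 (adjusted p = 0.0331).

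**Figure D5:**
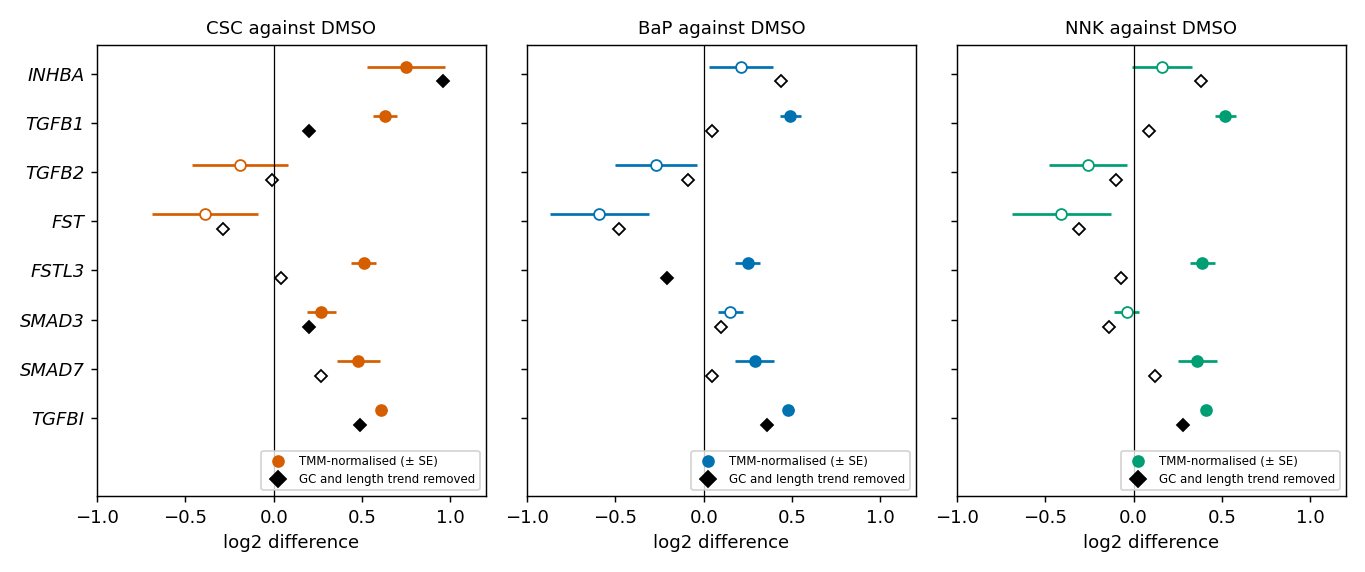
Log2 difference of each member between a chemical and DMSO over the lines. Circles with bars of 1 SE are the values after TMM normalization, and black diamonds those after the trend with GC content and transcript length was removed. Filled symbols passed an adjusted p of 0.05. TGFBI stays at 0.28 to 0.49 after the correction, while FSTL3 lies between -0.21 and 0.04.

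Of 54 other pathway genes tested with the chemicals, 19 rose and 13 fell with CSC (59.3%, beside 47.3% of all genes). With BaP 16 rose and 20 fell (66.7%, beside 51.5%), and with NNK 22 rose and 16 fell (70.4%, beside 52%). After the GC and length correction these were 17 and 3, 11 and 12, and 12 and 2, where 26.6%, 23.5% and 15.4% of all genes passed. ID1, a target that blocks the action of basic helix-loop-helix factors, rose with CSC by 1.49 ± 0.09 and by 1.28 after the correction. LTBP3, which binds latent TGF-beta, rose with each chemical (1.18 ± 0.12, 1.02 ± 0.11 and 0.88 ± 0.11), and was at 0.60, 0.47 and 0.33 after the correction. GREM1 rose with CSC by 1.01 ± 0.30, in 18 of 19 alternatives (adjusted p up to 0.13). With BaP the cell cycle inhibitor CDKN1A rose by 0.97 ± 0.05. The proteoglycan gene DCN was at 0.95 ± 0.26 with BaP (means of 1.62 and 0.875 reads, so past the filter only through BaP). This value is a description, and the 16 that rose with BaP include DCN. With NNK CTGF rose by 1.38 ± 0.13 and BHLHE40, a transcriptional repressor, by 1.01 ± 0.06. ITGB8 fell with CSC, BaP and NNK by 0.90, 0.83 and 0.43, and remained lower after the correction (-0.67, -0.57 and -0.18). SMAD9 fell by 0.65 with CSC and 0.58 with NNK, SKIL, a co-repressor of Smads, fell by 0.41 with CSC, and among receptors TGFBR3 and BMPR1B fell by 0.74 and 0.59 with BaP and BMPR1A by 0.39 with NNK. After the correction SKIL, SMAD9 and BMPR1A no longer passed. Of 12 receptors, 8 were lower and 1 higher with BaP, and 6 lower and 1 higher with NNK, where 25.8% and 26.2% of all genes were lower. After the correction 4 were lower and 0 higher with BaP, and 1 lower and 1 higher with NNK.

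Whether the effect of a line depended on the treatment was tested by an interaction term. No member passed in 47 tests with limma-voom, where 342 of 85086 tests over all genes did (0.402%). Without adjustment 9 of the 47 had a p under 0.05 (19.1%), beside 8.69% over all genes, and edgeR's quasi-likelihood test called 1 and DESeq2 0. The lowest adjusted p was that of TGFB1 in CDKN2A against GFP (0.0557). There the TGFB1 log2 difference from GFP was 1.47 ± 0.19 with DMSO, 1.27 ± 0.15 with CSC, 2.14 ± 0.21 with BaP and 0.98 ± 0.20 with NNK. The GFP libraries with BaP lay within the range of those with DMSO, where the CDKN2A libraries rose by 0.72 ± 0.13 (adjusted p = 9.86e-06), a difference that was 0.20 (adjusted p = 0.505) after the GC and length correction. Over the 20 contrasts of a line with its control inside a treatment, members passed in 41 of 149 tests (27.5%, against 13.7% of all genes), 16 of them TGFBI and 8 TGFB1. The 41 include 3 of TGFB2, each in a contrast that TGFB2 entered only through the line where it was higher.

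The genes whose level followed INHBA most closely over the 32 combination means, among 10062 genes with a mean of at least 10 reads, were CCAT1 (Pearson r = 0.899), CLMP (0.888), ETS1 (0.876), AFAP1L1 (0.875) and VDAC1 (0.873). Without the 4 PIK3CA combinations r was 0.80, 0.851, 0.728, 0.761 and 0.773. The combinations share lines, controls and depth, so these values are a description. Among the members, INHBA was closest to TGFBI (r = 0.77) and TGFB2 (0.64), and FST was the member most opposed to it (-0.44). All r over the 32 combinations include those that chose INHBA, and for the members no r without PIK3CA was taken. INHBA had 0 reads in every FAT1 library, so these r values also reflect differences between lines.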

How the data were processed

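SFL libraries of AALE cells were read single-end, and the submitters' processing notes name cutadapt 1.12, FastQC 0.11.5, STAR 2.5.2b, featureCounts and the build hg19. The authors deposited raw read counts per RefSeq gene symbol for each library, with no normalization. Of 27978 symbols, 22764 had a read. The members and gene lists were chosen with earlier results of these data known. The 6 libraries that chose INHBA entered no test but 2 alternatives, 1 that adds them and 1 fit of all libraries that uses them for its spread, filter and normalization.

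Comparisons were fitted in R 4.3.3 with limma-voom (limma 3.58.1) on TMM-normalized counts of genes with a mean count over 1, with the treatment or line as a term, and p-values were adjusted over all genes tested by Benjamini-Hochberg at 0.05. Log2 CPM levels use TMM over all 95 libraries and a prior count of 2. Named were the members, the perturbed genes, the 5 genes most like INHBA, and at most 3 other pathway genes per direction and comparison with the largest called change. Alternatives were edgeR's quasi-likelihood test (edgeR 4.0.16), DESeq2 1.42.0 and its size factors, other count filters, the 10000 genes of largest median absolute deviation (MAD), a replicate block, 1 fit of all libraries, left-out replicates, libraries or lines, and a loess correction (span 0.3) of each library for GC content and transcript length, for which 23277 symbols (83.2%) had values. The scripts were tested on simulated data. Floors of 3 counts cover counting error only. Of 94 pairs of libraries within a combination, the lowest chi-square per degree of freedom was 1.14, so none was treated as a repeat deposit.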

Additional observations from a re-analysis of the deposited data

How the results depend on the processing

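Of 36 values of members past the threshold in the 9 comparisons, INHBA in CDKN2A included, tried under 650 settings in all, 610 kept direction and side of the threshold, 38 lost the call and 2 turned direction. The 2 were FSTL3 with BaP (-0.21) and with NNK (-0.07) after the GC and length correction. Of 559 settings for the 35 values that had not passed, 23 passed. The number of members past the threshold was 1 in NRF2 but 2 with a mean count of at least 10, with the GC and length correction or with the CSC libraries added. In FGFR1 it was 2, but 1 with a mean count of at least 10 or the 10000 genes of largest MAD, and 4 with the CSC libraries added. In NRG1 it was 2, and 1 with a mean count of at least 10. With the GC and length correction it went from 4 to 2 with BaP and from 4 to 1 with NNK. On leaving out 1 replicate number or library it lay between 3 and 5 in PIK3CA, between 1 and 2 in FGFR1 and between 1 and 2 in NRG1. Chemical contrasts inside lines gave 44 calls of members, 27 with DESeq2 and 18 with the GC and length correction. The interaction gave 0, and 1 with edgeR, with a mean count of at least 10 or with the replicate block.

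Replicate numbers did not pair the libraries, with correlations of deviations from -0.114 to 0.176 and in 0 of 42 comparisons all above 0.1. The replicate block left the number of members past the threshold as it was in each of the 9 comparisons (5 in PIK3CA) and at 41 in the line contrasts inside a treatment, and gave 49 instead of 44 in the chemical contrasts inside a line. The causes of these changes were not tested.

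Over all genes, calls with CSC, BaP and NNK were 6781, 7387 and 7460, against 3902, 4395 and 4341 among the genes of largest MAD and 3621, 3195 and 2102 after the GC and length correction, and 12425 and 12376 with BaP and NNK without a filter. The share of these that was higher moved from 50% to 63% (CSC, MAD), from 49.9% to 63.6% (BaP, MAD) or 70.1% (no filter), and from 49.6% to 60.9% or 69.3% (NNK). With the MAD genes, calls went from 2738 to 1777 in NRF2, 1358 to 883 in FGFR1 and 1052 to 684 in NRG1. Without replicate 1 or 2 they were 1956 and 1985 of 2996 in PIK3CA, 1489 and 1684 in NRF2, 746 and 705 in FGFR1, and 378 and 592 in NRG1. INHBA, TGFB2 and FST had 0 reads in 20, 14 and 23 of 95 libraries, and the size of difference that this depth allows to be seen was not tested.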
